A study of Mus musculus with 9 samples.

Results

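The genes described here are 10 that the field groups as disease-associated microglia genes of the Trem2 and Apoe pathway: Trem2, Tyrobp, Apoe, Cst7, Lpl, Spp1, Gpnmb, Itgax, Clec7a and Ch25h. They were taken by symbol from the 23238 gene symbols of the count tables, each of the 10 occurred on a single entry, and all 10 were among the 12292 genes that passed the filter on low counts. RNA was measured in CD45+CD11b+P2ry12+ cells sorted as microglia from the brains of female wild-type C57BL/6N mice, 12 weeks of age, on day 1. The Normal group was untreated. The NMO group received IgG from patients with antibodies against aquaporin-4, mixed with human complement, by injection into the striatum of one side. The NMO+CL group received the same injection 6 h after intraperitoneal clodronate liposomes, which deplete monocytes and macrophages. Each group had 3 libraries, and each library was a pool of 3 mice. Normal mice had no surgery and no library had a control antibody or empty liposomes among those analysed here. Antibody, complement and surgery therefore cannot be told apart between NMO and Normal, and clodronate and its carrier cannot be told apart between NMO+CL and NMO.

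Trem2 is a surface receptor of microglia that binds lipids and lipoproteins and signals through the adaptor Tyrobp (DAP12), which carries an activation motif that recruits the kinase Syk. Apoe is a lipoprotein component and a ligand of Trem2. In neurodegeneration, demyelination and ageing, microglia that take up lipid debris are known to lower their homeostatic genes and to raise Apoe, Lpl, Cst7, Spp1, Itgax and Clec7a, the later part of this program depending on Trem2. Most of that knowledge comes from chronic disease, whereas these cells were taken 1 day after an acute injection.

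Expression of the 10 genes did not move as a block. Lpl, the lipase that releases fatty acids from lipoproteins, was 7.25-fold higher in NMO than in Normal. Cst7, a cystatin that inhibits lysosomal cysteine proteases, was 14.5-fold higher in NMO+CL than in Normal, and Apoe was 1.91-fold higher. Trem2 itself was 1.89-fold lower in NMO+CL than in Normal, while Tyrobp differed by 1.01-fold to 1.02-fold in the 3 comparisons. In edgeR's quasi-likelihood test with Benjamini-Hochberg adjustment over all genes, 1 of the 10 genes was called higher and 0 lower in NMO compared with Normal, where 0.496% of all genes tested were called (0.472% higher and 0.0244% lower). Of the 10, 4 had an unadjusted p under 0.05 there, as did 9.51% of all genes. In NMO+CL compared with Normal 3 were called higher and 1 lower, where 9.22% of all genes were called (4.78% higher and 4.43% lower), and 5 had an unadjusted p under 0.05, as did 22.3% of all genes. In NMO+CL compared with NMO 0 of the 10 were called, where 1.59% of all genes were (0.529% higher and 1.07% lower). In this last comparison 5 of the 10 had an unadjusted p under 0.05, as did 12.4% of all genes, the DESeq2 Wald test called 1 higher and 1 lower where it called 3.78% of all genes, and limma-voom called 1 higher and 2 lower where it called 1.49%. The median log2 fold change of the 10 genes was 0.38, 0.10 and 0.84 in NMO against Normal, NMO+CL against NMO and NMO+CL against Normal, and that of all genes tested was -0.01, -0.01 and -0.01. Counted instead by groups that did not overlap, 2 of the 10 genes were higher and 2 lower in NMO against Normal, where 9.21% and 8.2% of all genes were. Gpnmb counted among those lower, and with the floor of 3 counts a library its groups would not be separated. In NMO+CL against NMO 2 were higher and 3 lower (7.89% and 9.22% of all genes), of which Spp1 counted as higher by a margin of 6.714 over 6.712 CPM, and in NMO+CL against Normal 3 were higher and 1 lower (13.8% and 14.9%), with 17.4%, 17.1% and 28.7% of all genes not overlapping in either direction. By the looser rule of a 1.5-fold change with an unadjusted p under 0.05, 3 were higher and 1 lower in NMO against Normal (5.19% and 2.77% of all genes, 7.96% together). That rule gave 2 higher and 3 lower in NMO+CL against NMO (4.09% and 6.65%, 10.7% together) and 4 higher and 1 lower in NMO+CL against Normal (9.9% and 10.2%, 20.1% together). The 3 comparisons share libraries, so their values are set side by side and not counted as separate evidence.

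**Figure D1:**
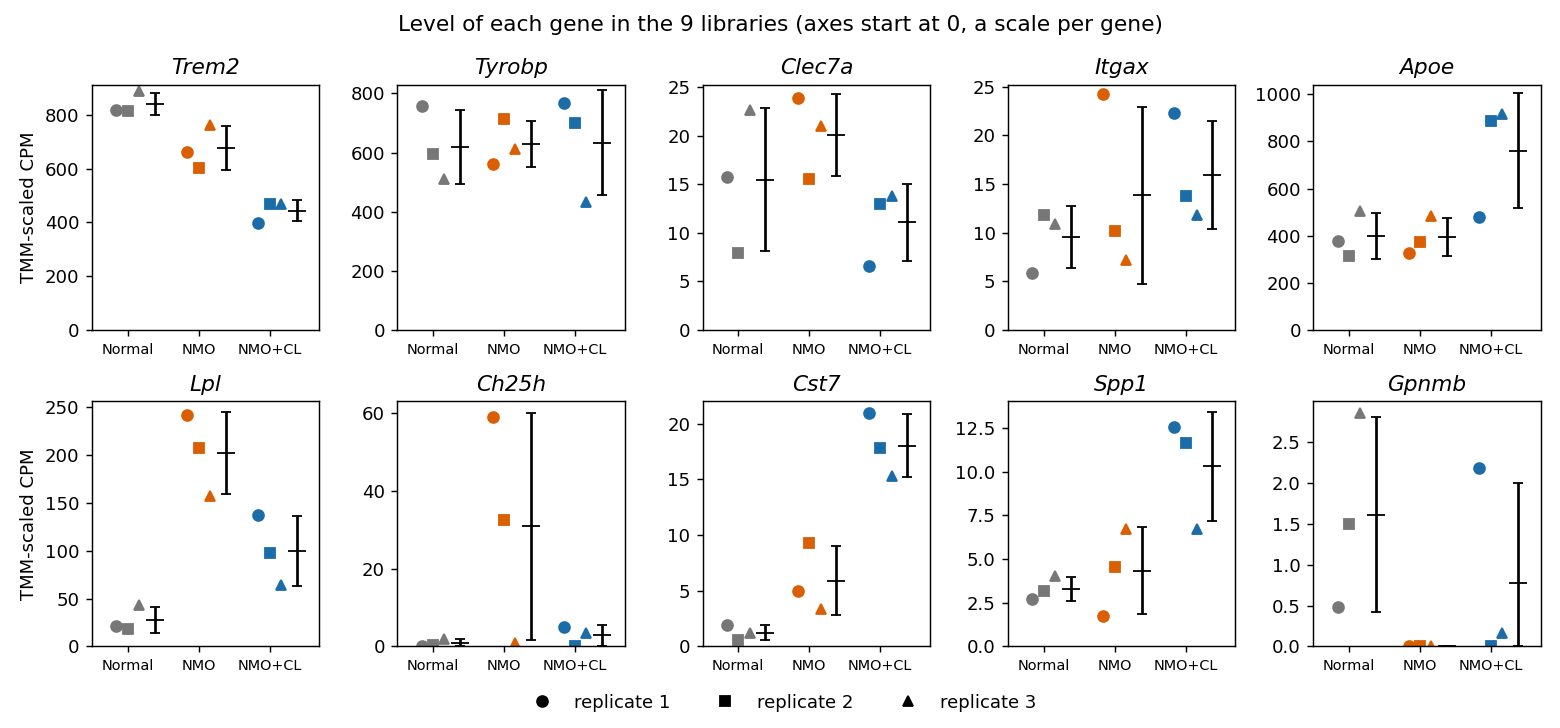
TMM-scaled CPM (counts scaled to a common library size, vertical axes from 0, with a scale for each gene) of the 10 genes in the 9 libraries, by group. Points are libraries, shaped by replicate number, and the bar beside them is the mean ± SD (n = 3). Trem2 steps down from Normal to NMO+CL without overlap, Lpl is highest in NMO, Cst7 is highest in NMO+CL, and Gpnmb has 0 counts in the NMO libraries.

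The libraries held 5788234 to 7837219 counts. CPM values here are counts per 1000000 of the TMM-scaled library size. A gene with 0 counts in a library could have been present at a level giving up to 3. QuantSeq reads only the 3′ end of a transcript, and levels are compared between groups for the same gene, not between genes. The sorted cells carried the markers of microglia. The 10 microglial marker transcripts summed to between 34121 and 38746 CPM in Normal, 29361 to 34172 in NMO and 19870 to 27510 in NMO+CL, so that the list was lower in NMO+CL without overlap, and P2ry12, the receptor used for the sort, was among those that fell. The 8 monocyte markers summed to 38 to 62.1, 52.5 to 114 and 55.3 to 84.6 CPM in the same order, and the 8 neutrophil markers to 41.5 to 529, 102 to 378 and 265 to 1290 CPM. The 7 border macrophage markers summed to 160 to 308, 10.8 to 194 and 221 to 411 CPM, with Cd163 at 0 in NMO and NMO+CL. The 7 astrocyte markers summed to 168 to 213, 103 to 132 and 84.5 to 127 CPM, with Gfap at 0 in Normal and NMO and Aldh1l1 at 0 in Normal and NMO+CL. The 8 dendritic cell markers summed to 36.1 to 103, 57.2 to 90.4 and 36.5 to 53.2 CPM, the 6 oligodendrocyte markers to 84.4 to 137, 72.9 to 100 and 35.7 to 68.7 CPM, and 7 of 8 lymphocyte markers to 9.31 to 20.2, 8.15 to 19.6 and 6.31 to 14.4 CPM with Cd3e at 0 throughout. In the main analysis no monocyte, neutrophil, border macrophage, dendritic cell or lymphocyte marker was called. Of the 10 microglial markers 7 were called lower in NMO+CL than in Normal, with a median log2 fold change of -0.80 for the list. Those with the smallest adjusted p were P2ry12 (2051 to 2660 CPM in Normal, 265 to 448 in NMO+CL), Gpr34 and Siglech. They were among 4 called lower in NMO+CL than in NMO, and Siglech was called lower in NMO than in Normal (lost in 6 of 16 alternatives). Slc1a3 and Slc1a2 of the astrocyte list and Cnp of the oligodendrocyte list were called lower in NMO+CL than in Normal. These calls were lost in 5, 5 and 4 alternatives. The neutrophil genes S100a8 (log2 fold change 1.97 to 4.35) and S100a9 (2.04 to 4.57) were called higher in NMO+CL than in Normal in 4 of the 16 alternatives, namely with all genes with a count, limma-voom or the replicate block and without Normal replicate 1. With all genes with a count they were also called higher in NMO+CL than in NMO. Cbr2, Chil3 and S100a4 were called with all genes with a count, Ngp without Normal replicate 1 and Lyve1 without NMO replicate 1. In pooled cells, fewer cells with a transcript and less transcript per cell cannot be told apart.

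**Figure D2:**
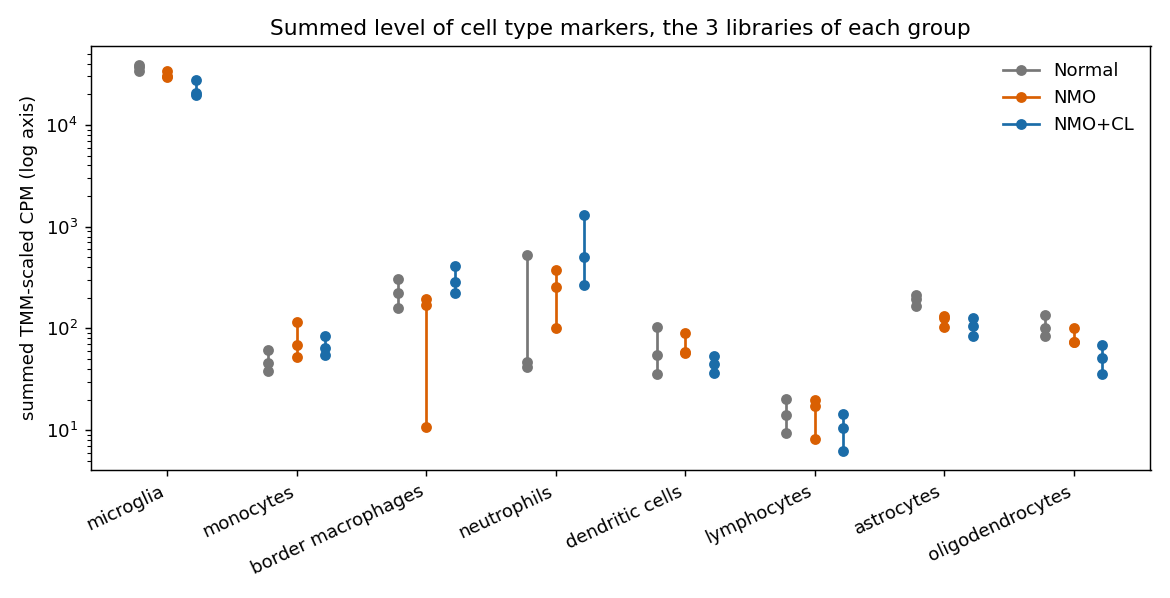
Summed TMM-scaled CPM (vertical axis, logarithmic) of 8 lists of cell type markers, with the 3 libraries of each group as points joined by a line. The microglial list is lowest in NMO+CL, without overlap, and the neutrophil list reaches 1290 CPM in 1 NMO+CL library.

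The promoter windows of 3 genes that were called, Trem2, Cst7 and Apoe, are shown because their levels moved in different directions between the same groups. They come from RefSeq on GRCm38.p6, hold 250 bases before the annotated start and 50 after it, and run 5′ to 3′ on the strand of the gene. A window was found for 8 of the 10 genes, and the first of the 3 windows of Apoe is given. Capitals mark matches to a motif.
Trem2 (chr17:48346151-48346450, plus strand): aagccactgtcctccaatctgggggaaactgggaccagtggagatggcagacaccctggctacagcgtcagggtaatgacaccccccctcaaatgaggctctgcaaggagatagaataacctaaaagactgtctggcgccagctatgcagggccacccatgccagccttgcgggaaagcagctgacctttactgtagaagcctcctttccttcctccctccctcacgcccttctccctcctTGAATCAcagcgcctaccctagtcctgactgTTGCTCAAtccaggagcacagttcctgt
Cst7 (chr2:150570165-150570464, plus strand): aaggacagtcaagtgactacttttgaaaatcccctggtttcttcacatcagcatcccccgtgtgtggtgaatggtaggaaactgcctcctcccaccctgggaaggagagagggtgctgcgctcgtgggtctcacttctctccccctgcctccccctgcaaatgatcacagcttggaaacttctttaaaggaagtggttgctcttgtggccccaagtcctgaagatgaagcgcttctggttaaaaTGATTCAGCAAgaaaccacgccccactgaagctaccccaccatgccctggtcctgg
Apoe (chr7:19699139-19699438, minus strand): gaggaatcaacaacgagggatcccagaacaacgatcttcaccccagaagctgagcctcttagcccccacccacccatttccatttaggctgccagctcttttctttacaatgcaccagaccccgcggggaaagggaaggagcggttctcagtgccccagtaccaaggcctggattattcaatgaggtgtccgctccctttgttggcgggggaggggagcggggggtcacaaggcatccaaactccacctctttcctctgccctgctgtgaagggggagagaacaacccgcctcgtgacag
Motifs searched on both strands were those of AP-1 (TGANTCA), PU.1 (GAGGAAGT), C/EBP (TTGCNNAA), NF-kB (the decamer), the E-box (CACGTG), the TATA box (TATAAA) and the STAT site (TTCNNNGAA). The AP-1 motif occurred as TGAATCA starting 9 bases before the start of Trem2 and as TGATTCA starting 6 bases before that of Cst7, where it overlaps a C/EBP match by 4 bases. It was also present in the windows of Gpnmb and Itgax, 4 of the 8 genes with a window, and in 7.81% of all 32851 windows. Counts of genes take a match in any window of a gene, and Apoe had 3 windows and Spp1 and Clec7a 2 each. Shares of all windows count each window singly, so these 2 kinds of share differ in unit. The PU.1 motif was in the window of Spp1 and in 3.2% of all windows, and the NF-kB, E-box and STAT motifs were in none of the 8 genes' windows and in 0.41%, 7.15% and 8.3% of all. The TATA box was found for 4 of the 8 genes (Apoe, through its second window, which is not printed, Spp1, Clec7a and Ch25h) and in 13.62% of all windows. The Trem2 window had a second match, TTGCTCAA, to the C/EBP motif. That motif occurred in 4 of the 8 genes (Trem2, Cst7, Spp1, through its second window, and Ch25h) and in 10.8% of all windows. The Apoe window printed had no match to any of the 7 motifs. A match here describes letters and is no evidence of binding. Trem2, which fell, and Cst7, which rose, were printed for their different directions, and a part of AP-1 in either was not tested.

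Trem2 (chromosome 17, 48346401 to 48354147, plus strand of GRCm38) had 818, 815 and 887 CPM in the Normal libraries, 662, 602 and 764 in NMO, and 399, 467 and 467 in NMO+CL. The 3 groups did not overlap, and their order was Normal, NMO, NMO+CL from high to low. The group means were 840 ± 41.0, 676 ± 81.7 and 444 ± 39.3 CPM (SD, n = 3). In NMO+CL compared with Normal Trem2 fell by 0.92 on the log2 scale (standard error 0.17, 95% interval -1.27 to -0.57, adjusted p = 0.00165, edgeR, lower in 3 of 3 libraries) and was called in all 16 alternative analyses, which used other normalisations, filters and tests or left a library out. Both single steps missed the threshold. The log2 fold change was -0.31 in NMO compared with Normal (adjusted p = 0.593) and -0.60 in NMO+CL compared with NMO (adjusted p = 0.0825), and the second step was called with the DESeq2 Wald test (0.0069) and limma-voom (0.0448). The microglial marker list was lowest in the same NMO+CL libraries, and its part in the fall of Trem2 was not tested.

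Tyrobp (chromosome 7, 30413760 to 30417585, plus strand), the adaptor through which Trem2 signals, had 756, 594 and 510 CPM in Normal, 562, 715 and 613 in NMO, and 767, 700 and 434 in NMO+CL. The 3 groups overlapped throughout, and no order among them could be given. Its log2 fold changes were 0.02, 0.01 and 0.03 in NMO against Normal, NMO+CL against NMO and NMO+CL against Normal (adjusted p = 0.992, 0.996 and 0.966, edgeR), with 95% intervals from -0.43 to 0.48, -0.44 to 0.46 and -0.42 to 0.48. A fall of the size seen for Trem2 between NMO+CL and Normal lies outside the last of these intervals. Counts of Trem2 per count of Tyrobp were 1.08, 1.37 and 1.74 in the Normal libraries, 1.18, 0.842 and 1.25 in NMO, and 0.520, 0.667 and 1.08 in NMO+CL. All 3 NMO+CL libraries lay below the 3 Normal libraries, the closest pair being 1.076 and 1.081, and NMO overlapped both.

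Clec7a (chromosome 6, 129461591 to 129472779, minus) encodes Dectin-1, a receptor for fungal glucans that also signals through Syk and is a usual surface mark of disease-associated microglia. Its Normal libraries held 15.8, 7.96 and 22.7 CPM, those of NMO 23.8, 15.5 and 20.9, and those of NMO+CL 6.55, 12.9 and 13.7. Each NMO+CL library was below each NMO library, which held in either direction for 17.1% of all genes in that comparison, and Normal overlapped both. The gene was not called (log2 fold change 0.38, -0.86 and -0.48 in NMO against Normal, NMO+CL against NMO and NMO+CL against Normal, adjusted p = 0.923, 0.494 and 0.658, edgeR).

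Itgax (chromosome 7, 128129547 to 128150657, plus strand) encodes CD11c, an integrin subunit that pairs with Itgb2. It had 5.89, 11.9 and 10.9 CPM in Normal, 24.2, 10.2 and 7.19 in NMO, and 22.3, 13.7 and 11.8 in NMO+CL. The first replicates of NMO and NMO+CL stood above the rest and all groups overlapped. Itgax was not called (log2 fold change 0.54, 0.20 and 0.74, adjusted p = 0.880, 0.943 and 0.495, edgeR), and without NMO replicate 1 its value for NMO against Normal turned to -0.16.

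Apoe (chromosome 7, 19696109 to 19699188, minus strand) was measured at 378, 315 and 504 CPM in the Normal libraries, 326, 373 and 483 in NMO, and 481, 885 and 918 in NMO+CL. NMO and Normal lay in the same range, with a log2 fold change of -0.02 (95% interval -0.53 to 0.50, adjusted p = 0.994, edgeR). In NMO+CL 2 libraries stood above all others, while replicate 1 lay within the range of Normal and below NMO replicate 3. Means were 399 ± 96.5, 394 ± 80.7 and 761 ± 244 CPM (SD, n = 3). Apoe was called higher in NMO+CL compared with Normal (log2 fold change 0.93, standard error 0.25, 95% interval 0.41 to 1.45, adjusted p = 0.0224), and just missed the threshold compared with NMO (0.95, 0.43 to 1.47, adjusted p = 0.0662). The first of these calls was lost without Normal replicate 1 (adjusted p = 0.0894), Normal replicate 2 (0.124), NMO+CL replicate 2 (0.103) or NMO+CL replicate 3 (0.0740). The second passed in 5 of the 16 alternatives, DESeq2 (0.00309) and limma-voom (0.0334) among them, and without NMO+CL replicate 1 (0.00928). Astrocytes, which lack the CD45 and CD11b used for the sort, and border macrophages, which carry both, also express Apoe. The sort also required P2ry12, and the study took CD11b+ cells without P2ry12 as monocytes and macrophages. The summed astrocyte markers were 168 to 213 CPM in Normal, 103 to 132 in NMO and 84.5 to 127 in NMO+CL. The summed border macrophage markers of NMO+CL (221 to 411 CPM) overlapped those of Normal (160 to 308) and lay above those of NMO (10.8 to 194), where 5 of the 6 markers tested had a positive log2 fold change with a median of 0.98. A single gene held most of each sum, Slc1a3 90.2% of that of astrocytes and Cbr2 87.6% of that of border macrophages, and Cbr2 had 0 counts in the NMO library with 10.8 CPM. Without these genes, a choice made after the sums were seen, the astrocyte sums were 10.7 to 26.1, 10.04 to 16.5 and 4.48 to 17.8 CPM in the order Normal, NMO, NMO+CL and the border macrophage sums 23.1 to 35.8, 10.8 to 34.9 and 16.9 to 38.5 CPM, and the groups overlapped. The part of either cell type in the Apoe differences was not tested.

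Lpl (chromosome 8, 68880491 to 68907448, plus strand) had 21.6, 18.6 and 43.5 CPM in Normal, 242, 208 and 157 in NMO, and 138, 97.8 and 63.9 in NMO+CL. The 3 groups did not overlap, and the order was NMO, NMO+CL, Normal from high to low. Lpl rose from 27.9 ± 13.6 to 202 ± 42.5 CPM (SD, n = 3) between Normal and NMO (log2 fold change 2.86, standard error 0.34, 95% interval 2.15 to 3.57, adjusted p = 3.79e-04, edgeR), and it held rank 5 of the 12292 genes by p in that comparison. In NMO+CL it was at 99.9 ± 37.0 CPM, still higher than in Normal (log2 fold change 1.84, standard error 0.33, adjusted p = 0.00151). Both rises were called in all 16 alternatives. The value in NMO+CL compared with NMO was -1.02 (95% interval -1.68 to -0.35, unadjusted p = 0.00485, adjusted p = 0.135, edgeR), which was past the threshold with limma-voom (0.0320) and when all genes with a count were tested (0.00195) and not in the other 14 alternatives.

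Ch25h (chromosome 19, 34473778 to 34475164, minus strand) encodes cholesterol 25-hydroxylase, which makes 25-hydroxycholesterol and is known to be induced by interferon and Toll-like receptor signals. It had 0, 3 and 12 counts in the Normal libraries, 470, 272 and 6 counts in NMO, and 35, 0 and 21 counts in NMO+CL. In CPM the NMO libraries had 59.0, 32.5 and 0.959. Replicates 1 and 2 of NMO were therefore far above every other library, and replicate 3 lay within the range of Normal. The log2 fold change for NMO against Normal was 5.22 with a 95% interval from 2.40 to 8.05, and it was not called (adjusted p = 0.106, edgeR). With a library left out the value ran from 4.30 (without NMO replicate 1) to 6.94 (without Normal replicate 3, which held 12 of the 15 Normal counts). Without NMO replicate 3 it was called (log2 fold change 5.79, adjusted p = 0.0186), as it was when all genes with a count were tested (6.44e-09). NMO+CL compared with NMO gave -3.44 (adjusted p = 0.195, edgeR), with values from -4.19 to -2.53 over the 16 alternatives. This difference was called only when all genes with a count were tested (5.69e-05). The gene overlaps an antisense transcript, Gm26902, by 159 bases on the opposite strand, and the use of strand in counting was not stated.

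Cst7 (chromosome 2, 150570415 to 150578944, plus strand) had 12, 4 and 7 counts in Normal, 40, 78 and 21 in NMO, and 144, 110 and 96 in NMO+CL. In CPM these were 1.91, 0.601 and 1.18, then 5.02, 9.32 and 3.36, then 21.0, 17.8 and 15.3. The groups did not overlap, and the order was NMO+CL, NMO, Normal from high to low, the reverse of Trem2. Means were 1.23 ± 0.656, 5.90 ± 3.08 and 18.0 ± 2.82 CPM (SD, n = 3). Cst7 rose in NMO+CL compared with Normal (log2 fold change 3.86, standard error 0.71, 95% interval 2.36 to 5.36, adjusted p = 0.00200, edgeR) and was called in all 16 alternatives. Neither single step was called, with a log2 fold change of 2.25 for NMO against Normal (adjusted p = 0.202) and 1.61 for NMO+CL against NMO (adjusted p = 0.276). Cst7 is also known from other leukocytes. The sort required P2ry12, and the study counted Ly6C+Ly6G+ neutrophils as a population apart from P2ry12+ microglia. All 8 neutrophil markers had positive log2 fold changes in NMO+CL against NMO and against Normal (medians 0.74 and 0.85), with summed levels of 529, 41.5 and 46.4 CPM in the Normal libraries, 102 to 378 CPM in NMO and 265 to 1290 CPM in NMO+CL, so that Normal overlapped the others through replicate 1 alone. Their part in the Cst7 difference was not tested.

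Spp1 (chromosome 5, 104435118 to 104441050, plus strand) encodes osteopontin, a secreted ligand of integrins and CD44. It had 2.71, 3.15 and 4.03 CPM in Normal, 1.76, 4.54 and 6.71 in NMO, and 12.5, 11.6 and 6.71 in NMO+CL. NMO+CL libraries were above all Normal libraries, and NMO replicate 3 was level with NMO+CL replicate 3 to the digits given. The gene was not called in any comparison (log2 fold change 0.39, 1.25 and 1.64, adjusted p = 0.959, 0.547 and 0.222, edgeR), and the last value had a 95% interval from 0.01 to 3.27. A predicted transcript on the same strand, Gm42793, overlaps it by 309 bases and is not in the count tables.

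Gpnmb (chromosome 6, 49036546 to 49070929, plus strand), a membrane glycoprotein of lysosomes and phagocytes, was near the limit of detection. It had 3, 10 and 17 counts in Normal, 0 in each NMO library, and 15, 0 and 1 in NMO+CL. With 3 counts a library as the floor of NMO, the Normal mean lay 3.98-fold above that floor. Normal replicate 1 was itself at 3 counts, so this value is no firm minimum. The difference was not called (adjusted p = 0.464, edgeR). NMO+CL held counts almost only in replicate 1, and the adjusted p was 0.419 against NMO and 0.865 against Normal. Part of its last 500 bases resembles transcripts of other genes at 85% identity or more over 50 bases or more, so that some of these counts could belong elsewhere.

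**Figure D3:**
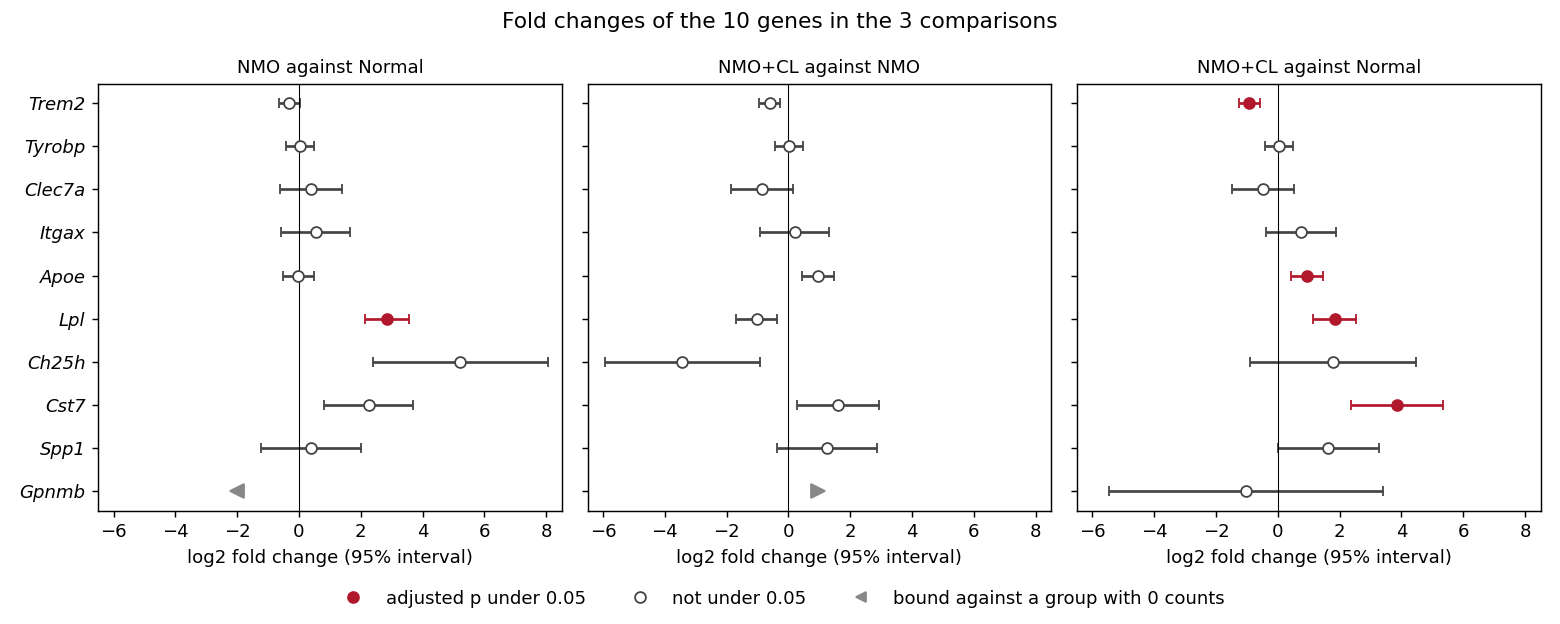
Log2 fold change of the 10 genes (horizontal axes) with its 95% interval in the 3 comparisons. Red points were called at an adjusted p under 0.05, open points were not, and grey triangles are bounds against NMO, where Gpnmb had 0 counts. Lpl alone was called in NMO against Normal, and Trem2, Apoe, Lpl and Cst7 in NMO+CL against Normal.

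Across the 9 libraries, the likeness of 2 genes was measured as the root mean square difference of their log2 CPM, each centred on its own mean, so that 0 is an identical profile. The genes nearest to Trem2 were Calm2 (0.11), Ptpre (0.12) and Pip4k2a (0.12), when Trem2 itself departed from its mean by 0.40. Those nearest to Apoe were Dkc1 (0.16), Gpr146 (0.16) and Smpdl3b (0.22), with 0.54 for Apoe itself. Cst7 lay nearest to C5ar1 (0.49), Ece2 (0.50) and Fcgr4 (0.51), with 1.57 for Cst7 itself. Lpl lay nearest to Tfrc (0.57), Ccl2 (0.59) and Pstpip1 (0.59), with 1.28 for Lpl itself. Lists of neighbours taken from 12292 genes over 9 libraries in 3 groups describe these libraries, and genes that merely differ between the same groups come up among them.

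Genes that work with the 10 were described from 9 lists holding 102 genes, 5 of them in more than 1 list, of which 90 were tested. In NMO compared with Normal 1 was called higher and 0 lower, 1.11% of those tested beside 0.496% of all genes. In NMO+CL compared with NMO 1 was called higher and 4 lower (5.56% beside 1.59% of all genes), and in NMO+CL compared with Normal 9 higher and 12 lower (23.3% beside 9.22%). The related genes therefore moved in both directions, and their median log2 fold change in the last comparison was -0.03.

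**Figure D4:**
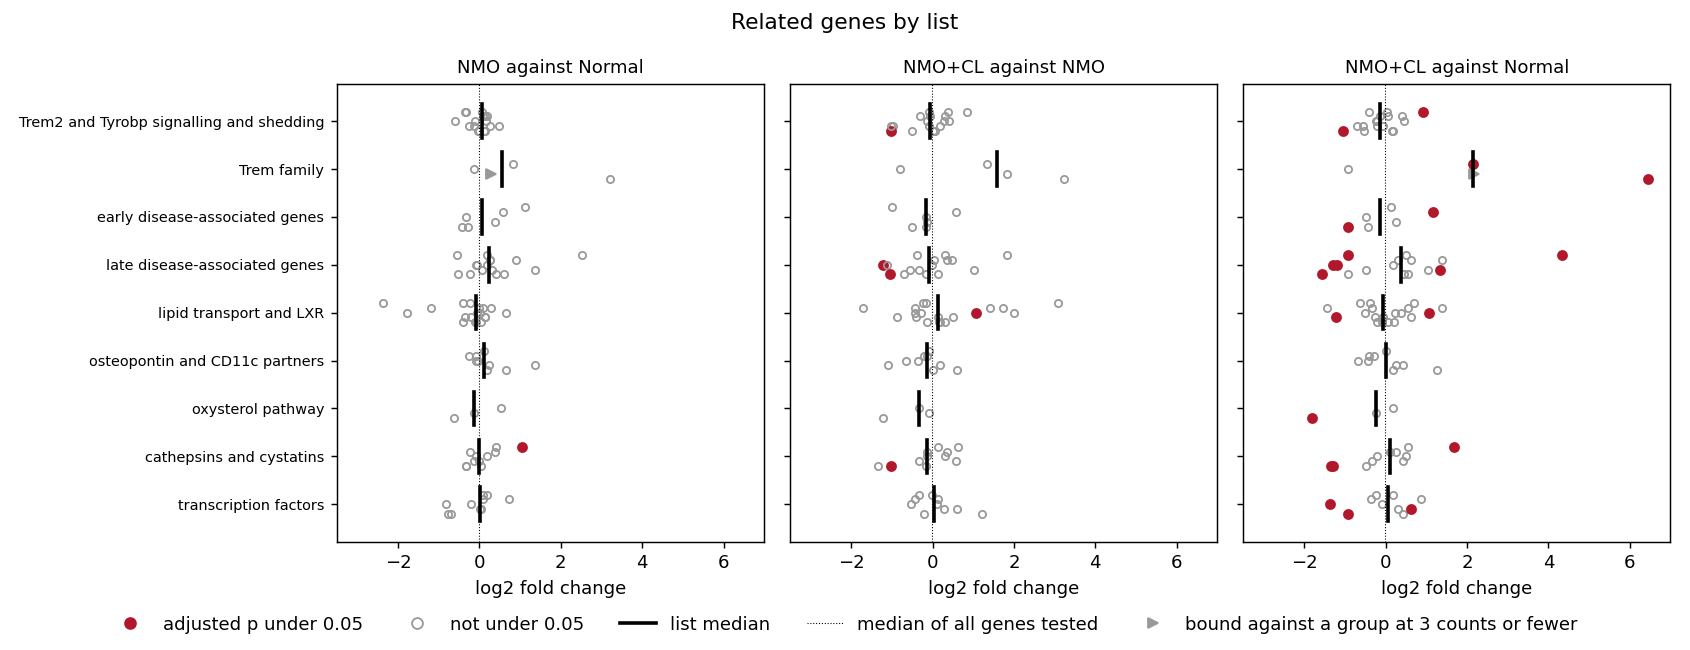
Log2 fold changes (horizontal axes) of the tested genes of 9 related lists in the 3 comparisons. Filled red circles were called, open circles were not, triangles are bounds, the thick bar is the median of a list and the dotted line that of all genes tested. Calls in NMO+CL against Normal lie on both sides of 0 in most lists.

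Of the 17 genes of Trem2 and Tyrobp signalling and shedding, all tested, 0 were called in NMO against Normal by edgeR, DESeq2 or limma-voom, which called 0.496%, 1.81% and 0.35% of all genes, and 0 had an unadjusted p under 0.05, as 9.51% of all genes did. Pik3cg, a catalytic subunit of PI3-kinase, fell in NMO+CL compared with NMO (log2 fold change -1.01, adjusted p = 0.0262, edgeR) and compared with Normal (-1.04, 0.00623). The first call was lost without Normal replicate 2 or 3, NMO replicate 1 or 3 or NMO+CL replicate 2 or 3 (adjusted p 0.0503 to 0.114) and with the compared groups alone (0.101). Dok3, an inhibitory adaptor, rose in NMO+CL compared with Normal (0.91, 0.0308), but not without Normal replicate 1 or 2 or NMO+CL replicate 2 or 3 (0.0783 to 0.154). Syk, the kinase recruited by Tyrobp, had log2 fold changes of -0.35, 0.37 and 0.03 and was not called. The list medians were 0.07, -0.07 and -0.13.

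Among the other receptors of the Trem family, 4 of 5 were tested. Trem1, an amplifier of inflammation found on neutrophils and monocytes, had 4, 0 and 0 counts in Normal, 18, 12 and 17 in NMO, and 155, 187 and 46 in NMO+CL, and was called higher in NMO+CL than in Normal (adjusted p = 0.00118, edgeR). Treml2 averaged 57.8 ± 19.1 CPM in NMO+CL and 22.9 ± 3.24 in NMO (SD, n = 3), and rose against Normal (log2 fold change 2.15, adjusted p = 9.36e-04). In NMO+CL against NMO they missed the threshold (adjusted p = 0.0856 and 0.0647, edgeR) but passed with all genes with a count (0.0105 and 0.0149), with DESeq2 (0.00372 and 0.0148) and without NMO+CL replicate 3 (0.0441 and 0.0433), and Treml2 also with limma-voom (0.0398). Both rose in the group in which Trem2 fell, and both also stood beside neutrophil marker sums of 265 to 1290 CPM in NMO+CL, against 529 CPM in Normal replicate 1 and 41.5 and 46.4 in the other Normal libraries. The cells were sorted for P2ry12, and the part of neutrophils in these 2 rises was not tested.

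The disease-associated genes outside the 10 were also called in both directions. Of the 6 early genes, Fth1, the heavy chain of ferritin, was at 637 ± 50.3 CPM in Normal and, at 1.17 log2 units higher, 1430 ± 549 CPM in NMO+CL (adjusted p = 0.00338, edgeR), and Timp2 fell by 0.93 (0.00844, not called without Normal replicate 2 or NMO+CL replicate 2, at 0.0553 and 0.0587). The other 4 (B2m, Ctsb, Ctsd and Lyz2) were not called in the main analysis. Ctsd was called lower in NMO+CL than in Normal in 4 of the 16 alternatives, with DESeq2 (0.0379) or limma-voom (0.0303) and without Normal replicate 3 (0.0452) or NMO+CL replicate 3 (0.0327). With all genes with a count, Lyz2 was called higher in NMO than in Normal (1.14, 0.00504) and lower in NMO+CL than in NMO (-0.998, 0.0123). Of the 16 late genes tested, Lilrb4a, an inhibitory receptor, was at 3.57 ± 3.43 CPM in Normal and 72.1 ± 26.9 in NMO+CL, a log2 rise of 4.34 (adjusted p = 8.41e-04, edgeR, with a rise of 5.25 without Normal replicate 1 and 3.75 without Normal replicate 2), and Cd63 rose by 1.33 (0.00438). Serpine2 (-1.57, 9.28e-05), Cadm1 (-1.30, 5.20e-04), Ccl6 (-0.93, 0.00728) and Cd9 (-1.19, 0.0213) fell, and Cd9 was not called without Normal replicate 1 (0.0628) or 3 (0.115). Cadm1 (-1.21, 0.00504) and Serpine2 (-1.05, 0.0115, with 0.0667 without NMO replicate 1 and 0.0507 with the compared groups alone) were also lower in NMO+CL than in NMO. In that comparison Lilrb4a and Cd63 were called higher in 4 and 5 of the 16 alternatives and Cd9 lower in 3, none of them in the main analysis. Axl, Lgals3 and Csf1, which often mark the late state, were not called (adjusted p 0.143 to 0.994 over the 3 comparisons), except that Lgals3 was called higher in NMO+CL than in Normal without Normal replicate 1 (2.36, 0.0254). The medians of the early and late lists were -0.15 and 0.38 in NMO+CL against Normal.

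In lipid transport and LXR control, the pathway in which Apoe and Lpl act, 19 of 22 genes were tested. Soat1, which esterifies cholesterol for storage, rose in NMO+CL compared with NMO (log2 fold change 1.06, adjusted p = 0.0352, edgeR) and with Normal (1.06, 0.00951). The first call was lost without any library other than NMO+CL replicate 3 (adjusted p 0.0510 to 0.203), with library totals (0.0508) and with the compared groups alone (0.103), the second without NMO+CL replicate 2 (0.0620). Abcg1, a cholesterol exporter, fell in NMO+CL compared with Normal (-1.21, 0.0170, and 0.0650 and 0.0852 without Normal replicates 1 and 3), and Abca1 did not pass the test (0.06, 0.914). In the oxysterol pathway, 3 of 5 genes were tested and Cyp27a1, a sterol hydroxylase, fell in NMO+CL compared with Normal (-1.82, 0.00334). The integrin and CD44 partners of osteopontin and CD11c gave 0 calls among 9 genes in each comparison with edgeR, DESeq2 and limma-voom, which called between 0.35% and 12.8% of all genes, and 0, 1 and 3 of them had an unadjusted p under 0.05 in NMO against Normal, NMO+CL against NMO and NMO+CL against Normal, as did 9.51%, 12.4% and 22.3% of all genes. Without NMO+CL replicate 3, Itgb2 (0.70, 0.0436) was called higher and Itgb3 (-0.93, 0.0474) lower in NMO+CL against Normal.

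The list of 11 cathepsins and cystatins had calls in each comparison. Ctsc, the cathepsin that activates granule proteases and a target of the Cst7 product, had group means of 272 ± 30.3, 566 ± 145 and 873 ± 185 CPM (Normal, NMO, NMO+CL, SD, n = 3). It rose by 1.06 log2 units in NMO (adjusted p = 0.0351, edgeR) and by 1.68 in NMO+CL (1.14e-04) compared with Normal. The call in NMO was lost without any 1 of the Normal replicates or NMO replicates 1 and 2 (adjusted p 0.112 to 0.184) and with the compared groups alone (0.0523). Cst3, the abundant cystatin C, had group means of 23322 ± 1126, 18713 ± 1287 and 9271 ± 2526 CPM and fell in NMO+CL (log2 change -1.33 against Normal, adjusted p = 6.67e-05, and -1.01 against NMO, 0.00392, edgeR). Lgmn, a lysosomal endopeptidase, fell by 1.30 against Normal (0.0215), a call lost without Normal replicate 1 or 3 or NMO+CL replicate 2 or 3 (0.0594 to 0.0928) and with DESeq2 (0.0580). Thus Cst7 and Cst3, both cystatins, had opposite orders of the groups, with Cst7 highest and Cst3 lowest in NMO+CL. Among 10 transcription factors tested, Cebpa (-1.36, 5.70e-04) and Mitf (-0.91, 0.0408) fell and Runx1 (0.63, 0.0480) rose in NMO+CL compared with Normal. Mitf was lost without any Normal replicate, NMO replicate 1 or NMO+CL replicate 1 or 3 (0.0560 to 0.130) and with library totals (0.0705), and Runx1 without Normal replicate 2 or 3, NMO replicate 1 or 2 or NMO+CL replicate 1 or 2 (0.0513 to 0.182), with all genes with a count (0.0513) and with the compared groups alone (0.0601).

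**Figure D5:**
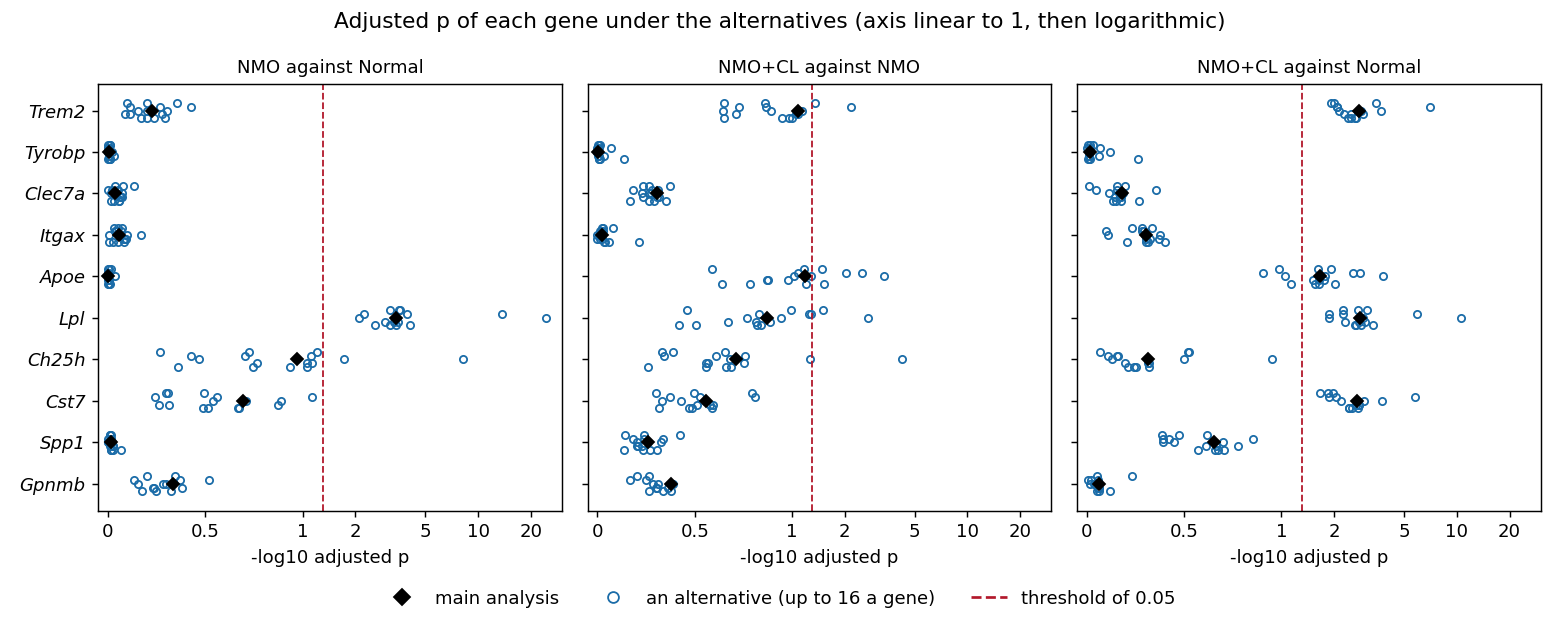
Adjusted p of each of the 10 genes as -log10 (horizontal axes, linear up to 1 and logarithmic above) in the main analysis and in up to 16 alternative analyses. The dashed line is the threshold of 0.05. Lpl, Trem2 and Cst7 stay right of it throughout in NMO+CL against Normal, as Lpl does in NMO against Normal, and Apoe falls on both sides.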

How the data were processed

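Per the study's methods, the authors prepared QuantSeq 3′ libraries and read 75 bases from one end. Bowtie2 served for alignment and Bedtools for counting reads per gene, with unique and multiple alignments both kept. The deposited values are raw read counts per gene symbol, on mm10 per the labels, and tool versions, the annotation and the use of strand are not given in the sources used here. For 35 symbols on 79 of the 23282 entries, none of them among the 10 genes, entries were summed.

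Here edgeR 4.0.16 was run in R 4.3.3 on these counts. The filterByExpr function (minimum count 10, minimum total 15) removed low genes, library sizes were TMM-scaled, and a quasi-likelihood model with 1 coefficient per group was fitted to all 9 libraries. Tests were two-sided, p values were adjusted by Benjamini-Hochberg over the 12292 genes of a comparison, and genes were called at an adjusted p under 0.05. Standard errors and 95% intervals were derived from the log2 fold change and its F statistic. The alternatives were DESeq2 1.42.0, limma-voom (limma 3.58.1), RLE factors, library totals, no filter, a replicate block, the 2 groups compared alone, and each library left out. Positions are from GENCODE M21 (GRCm38).

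The 10 genes and the lists were chosen with earlier results of these data known. All 10 are named. In each list, up to 3 called genes per direction with the smallest adjusted p are named, and for Trem2, Apoe and called members the 3 genes with the nearest profile. Cd9, Itgb2, Itgb3 and the uncalled genes named beside them were chosen after their values were seen. Replicates differed by more than counting error (chi-square per degree of freedom 23.2 to 55.5). Floors cover counting error only.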

Additional observations from a re-analysis of the deposited data

How the results depend on the processing

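Of the 10 genes, Lpl in NMO against Normal and Lpl, Cst7 and Trem2 in NMO+CL against Normal were called in all 16 alternatives, and Apoe in 12. In NMO against Normal 2 of the 10 were called higher when all genes with a count were tested and 1 to 2 when a library was left out, and 3 higher and 1 lower by a 1.5-fold change with unadjusted p under 0.05. In NMO+CL against NMO 1 was called higher with all genes with a count, DESeq2, limma-voom or the replicate block, 0 to 1 with a library left out, and 2 by the 1.5-fold rule, while 2, 1, 2 and 3 were called lower with all genes, DESeq2, limma-voom and the 1.5-fold rule. Related genes called higher in NMO against Normal numbered 3 with all genes, 0 with only these groups fitted and 0 to 1 with a library left out, and 1 was called lower with all genes or DESeq2. In NMO+CL against NMO they numbered 0, 7, 8, 4 and 0 higher with library totals, all genes, DESeq2, limma-voom and the replicate block and 0 to 4 with a library left out, and 9 lower with all genes, 2 with only these groups fitted and 2 to 5 with a library left out. The causes were not tested.

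Log2 fold changes near 0 changed sign. For NMO against Normal, Tyrobp was -0.0030 with RLE factors and -0.0030 with DESeq2, and Apoe was 0.079 with library totals. With a library left out, Tyrobp ran from -0.12 to 0.18, Apoe from -0.19 to 0.17, Spp1 from -0.060 to 0.75 and Itgax from -0.16 to 0.85. For NMO+CL against NMO, Tyrobp was -0.044 with library totals, -0.026 with limma-voom and -0.035 with the replicate block, and with a library left out ran from -0.15 to 0.22, and Itgax from -0.12 to 0.90. For NMO+CL against Normal, Tyrobp ran from -0.13 to 0.24. Replicate numbers do not pair these libraries (correlations of same-numbered deviations -0.0148 to 0.0302). With the replicate block, Apoe (adjusted p = 0.0296) and Lgmn (0.0265) were called and Soat1 (0.0512) was not in NMO+CL against NMO, and no other call of the 10 genes or the related genes changed.

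Genes called in the whole table numbered 61, 196 and 1133 in the 3 comparisons, but 223, 496 and 1448 with all 17263 genes with a count, 222, 465 and 1576 with DESeq2, and 34, 73 and 1187 with only the groups compared. With a library left out they ran from 20 to 75, from 51 to 231 and from 649 to 1265. With 3 libraries a group, each a pool, differences of low genes such as Gpnmb, Spp1 and Ch25h had wide intervals.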
